A study of Rattus norvegicus with 24 samples.

Results

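The genes described here encode the nuclear subunits of oxidative phosphorylation in rat kidney and heart. They were the rows of the count tables whose symbol belongs to the Nduf, Sdh, Uqcr, Cyc1, Cox or Atp5 subunit families of respiratory complexes I to V. The rule found 91 of the 36856 genes listed, of which 37 belong to complex I, 4 to complex II, 9 to complex III, 14 to complex IV and 27 to complex V. The 27 of complex V include Atp5if1, an inhibitor of ATP synthase rather than a subunit, and 9 rows with a numbered "like" suffix, which are copies of other Atp5 genes. Ndufa4 was counted with complex I by its symbol, although its protein is now assigned to complex IV. The 4 genes that mark the set, Ndufs1, Sdha, Uqcrc1 and Cox4i1, had counts in every library.

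The RNA came from Sprague-Dawley rats that the labels describe as female, of 120 to 200 g, with no genetic change named and no age given. In the aldosterone experiment, rats on a diet with 0.4% Na carried osmotic minipumps delivering 12 µg aldosterone per day, and their controls ate the same diet. In the low-salt experiment, rats ate a diet with 0.01 to 0.02% Na, against a diet labelled high salt. The study's text names no diet above the control diet of 0.4% Na, so the high-salt rats are called so here by their label. Diets lasted 7 days. The kidney inner medulla (the papilla of 1 kidney) was taken in both experiments and a piece of heart ventricle in the low-salt experiment. Each of the 6 groups held 4 rats, 2 in each of 2 labelled batches, which gave 24 libraries of 24299400 to 38318800 counts (rounded to 6 digits). Whether heart and kidney libraries with the same number came from the same rat is not given. Xist, the transcript that silences an X chromosome in females, had 234.4 to 451 CPM (counts scaled to a common library total) across the 8 aldosterone-experiment libraries and at most 0.0932 CPM across the 16 low-salt-experiment libraries. A sum of Y-linked genes was at most 0.320 CPM across the 8 and 148 to 276 CPM across the 16, which goes against the label female there and means that the 2 experiments also differ in this respect.

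Oxidative phosphorylation takes electrons from NADH through complex I and from succinate through complex II, passes them by way of complex III and cytochrome c to oxygen at complex IV, and uses the proton gradient so made to drive ATP synthesis at complex V. Most subunits are encoded in the nucleus and a core set in the mitochondrial genome. The heart ventricle is among the tissues richest in mitochondria, whereas the inner medulla of the kidney works at low oxygen tension and relies largely on glycolysis. Some subunits of complex IV exist in pairs, with a form found in most tissues and a form of heart and skeletal muscle, namely Cox6a2, Cox7a1 and Cox8b. The mitochondrially encoded subunits had no rows in the tables and were not analysed here.

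The promoters of 3 muscle forms and of 2 of their widely expressed partners are printed because the muscle forms and Cox8a stood at the ends of the heart and kidney contrast described below, and Cox7a2 is the partner of Cox7a1. Each line gives the RefSeq window (build GRCr8) from 250 bases before to 50 bases after the annotated gene start, 5′ to 3′ along the gene, with matches to any of 6 searched motifs in capitals. No window of Cox6a1 was used here.
Cox6a2, chr1:192219667-192219966, minus strand: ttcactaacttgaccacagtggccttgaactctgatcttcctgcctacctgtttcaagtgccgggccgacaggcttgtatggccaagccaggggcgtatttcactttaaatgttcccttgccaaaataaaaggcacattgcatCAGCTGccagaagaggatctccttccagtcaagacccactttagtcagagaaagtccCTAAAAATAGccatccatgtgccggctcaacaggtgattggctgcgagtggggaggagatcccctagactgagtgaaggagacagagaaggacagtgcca
Cox8b, chr1:205408224-205408523, minus strand: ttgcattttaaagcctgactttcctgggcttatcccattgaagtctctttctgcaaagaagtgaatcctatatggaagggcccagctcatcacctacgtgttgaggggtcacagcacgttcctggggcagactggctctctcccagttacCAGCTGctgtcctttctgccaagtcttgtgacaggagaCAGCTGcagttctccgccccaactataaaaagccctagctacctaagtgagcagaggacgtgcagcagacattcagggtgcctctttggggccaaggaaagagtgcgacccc
Cox7a1, chr1:94568966-94569265, plus strand: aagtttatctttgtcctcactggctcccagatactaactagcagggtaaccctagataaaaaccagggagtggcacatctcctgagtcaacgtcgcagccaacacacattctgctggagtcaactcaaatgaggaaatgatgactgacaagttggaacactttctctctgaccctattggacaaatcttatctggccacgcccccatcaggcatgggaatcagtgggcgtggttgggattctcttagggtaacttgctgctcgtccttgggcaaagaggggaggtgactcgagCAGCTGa
Cox8a, chr1:213833574-213833873, minus strand: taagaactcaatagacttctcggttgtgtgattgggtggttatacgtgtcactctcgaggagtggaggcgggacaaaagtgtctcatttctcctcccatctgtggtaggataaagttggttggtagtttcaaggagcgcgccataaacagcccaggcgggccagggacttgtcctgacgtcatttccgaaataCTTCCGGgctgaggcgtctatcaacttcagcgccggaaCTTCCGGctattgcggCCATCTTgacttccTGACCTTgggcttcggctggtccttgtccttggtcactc
Cox7a2, chr8:89601100-89601399, minus strand: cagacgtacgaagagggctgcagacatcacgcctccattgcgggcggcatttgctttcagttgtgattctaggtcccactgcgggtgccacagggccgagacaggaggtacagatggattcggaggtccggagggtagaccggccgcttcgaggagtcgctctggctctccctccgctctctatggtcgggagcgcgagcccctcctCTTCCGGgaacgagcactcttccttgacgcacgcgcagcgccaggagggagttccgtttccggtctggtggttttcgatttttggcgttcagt

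The capitals in the 3 muscle-form windows were the E-box CAGCTG, found at 1 place in Cox6a2, 2 in Cox8b and 1 in Cox7a1, and in Cox6a2 also a match to the MEF2 consensus. Those in Cox8a were CTTCCGG or CCGGAAG (the core bound by ETS factors such as GABP) at 2 places, the ERR motif AAGGTCA and the YY1 core AAGATGG, and Cox7a2 held the ETS core at 1 place. Both strands were searched, and no 2 matches in the printed windows overlapped. Windows were held for 77 of the 91 members and for 33469 promoters in all. The ETS core was in 21 of the 77 member windows (27.3%), against 8.75% of all windows, and the YY1 core in 18 (23.4%), against 7.01%. The ERR motif was in 12 (15.6%), against 4.61%, and the NRF1 core GCATGCG in 10 (13%), against 3.33%. The E-box was in 12 (15.6%), against 15.1%, and the MEF2 consensus in 2 (2.60%), against 3.29%. A match is a run of letters in a window and was not linked to binding in these tissues.

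The members made up a larger part of the RNA in heart than in kidney in each library. Their share of all counts was 7.05 ± 0.284% in low-salt hearts and 6.65 ± 0.227% in high-salt hearts (SD, n = 4 each), and 1.51 ± 0.0857% in low-salt kidneys and 1.44 ± 0.0571% in high-salt kidneys (SD, n = 4 each). In the aldosterone experiment it was 1.89 ± 0.192% in aldosterone kidneys, against 1.52 ± 0.163% in control kidneys (SD, n = 4 each). In tissue pieces such as these, fewer cells of a type and less RNA per cell cannot be told apart.

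**Figure D1:**
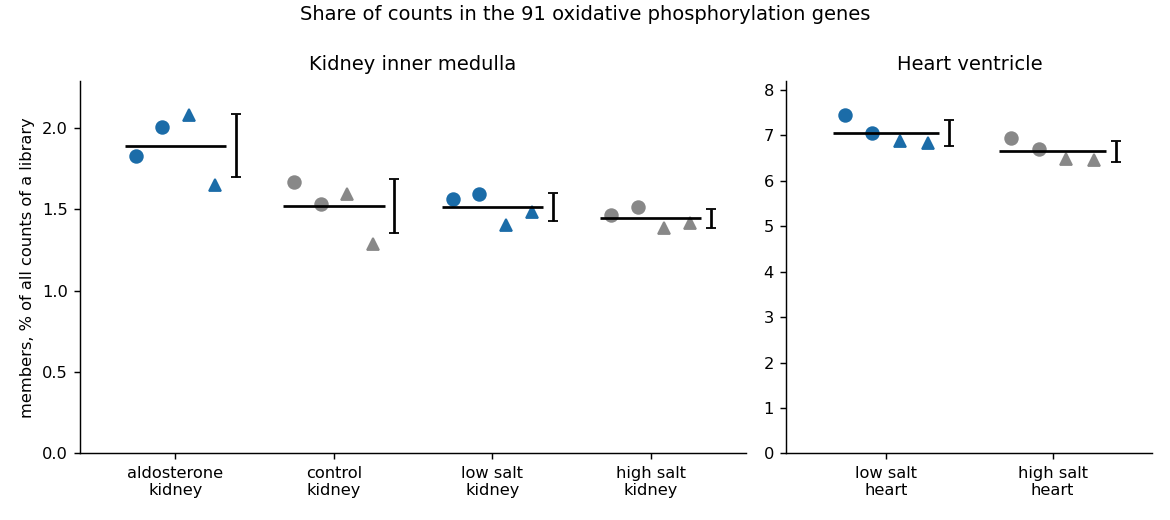
Share of each library's counts that fell on the 91 members, in percent, by group in kidney inner medulla (left) and heart ventricle (right, on its own axis). Points are single libraries (circles batch 1, triangles batch 2), lines are group means and bars are 1 SD of n = 4. All 8 heart libraries lay at 6.46% or more and all 16 kidney libraries at 2.08% or less.

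The first comparison asked what aldosterone infusion did to these transcripts in the inner medulla. Almost all of them sat at a higher average level in aldosterone kidneys than in control kidneys, but none passed the test over all genes. Of the 83 members tested, 82 had a positive log2 fold change, with a median of 0.31, against 50.9% of the 17671 genes tested and a median of 0.00. After Benjamini-Hochberg adjustment of edgeR's quasi-likelihood test, 0 members were called at 0.05, and 0% of all genes were called. At an unadjusted p under 0.05, 56 members were higher and 0 lower, where the background was 6.2% higher and 3.7% lower. DESeq2 called 5 members, all higher, but its share over all genes is not given here and the 0% above is edgeR's. In 11 members every aldosterone library lay above every control library, a separation that 3.15% of all genes showed, and in 0 members every one lay below (1.95%).

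The difference was spread over all 5 complexes. The median log2 fold change was 0.26 over the 37 members of complex I, 0.31 over the 4 of complex II, 0.35 over the 9 of complex III, 0.34 over the 12 tested of complex IV and 0.31 over the 21 tested of complex V. It was 0.27 over the members in batch 1 alone and 0.33 in batch 2 alone. Within complex V the c ring, the rotor that turns as protons pass, had the highest median at 0.51 over its 3 genes. Within complex I the 7 core subunits of the nuclear genome, which carry the flavin and iron-sulfur clusters, had a median of 0.33, and the 29 accessory subunits one of 0.26.

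Atp5mc3, a gene for the c subunit of ATP synthase, had the smallest p of the members. Its level was 489, 493, 530 and 417 CPM in aldosterone kidneys, against 339, 336, 367 and 242 CPM in control kidneys. The groups did not overlap, and the log2 fold change of 0.59 ± 0.13 (SE) had an adjusted p of 0.236. Atp5mc1, which encodes the same c subunit, averaged 240 CPM in aldosterone kidneys and 169 CPM in control kidneys, a log2 fold change of 0.51 ± 0.13 (adjusted p = 0.266), also without overlap. Atp5mc2, the third c subunit gene, stood at 0.26 on the log2 scale.

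Among the marker genes, Ndufs1, a core subunit of complex I that carries iron-sulfur clusters, had 266, 305, 300 and 229.1 CPM in aldosterone kidneys, against 259, 210, 222 and 187 CPM in control kidneys. Uqcrc1, a core subunit of complex III, had 329, 365, 340 and 254 CPM in aldosterone kidneys, against 275, 264, 245 and 200 CPM in control kidneys. In both genes the fourth aldosterone library was the lowest of its group and lay within the control range. Their log2 fold changes were 0.33 ± 0.12 (adjusted p = 0.407) for Ndufs1 and 0.39 ± 0.11 (adjusted p = 0.299) for Uqcrc1. Sdha, the flavoprotein of succinate dehydrogenase, averaged 439 CPM in aldosterone kidneys and 362 CPM in control kidneys, and Cox4i1, a subunit of complex IV, averaged 565 CPM in aldosterone kidneys and 454 CPM in control kidneys. Their log2 fold changes of 0.29 ± 0.11 and 0.32 ± 0.11 had adjusted p-values of 0.439 and 0.403, with overlap between the groups.

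Of the other extremes, Ndufc1 had the highest value of complex I (log2 0.44 ± 0.12, adjusted p = 0.271) and Cyc1, the cytochrome c1 of complex III, that of its complex (0.40 ± 0.10, adjusted p = 0.267). Sdhb had the highest value of complex II (0.36 ± 0.12, adjusted p = 0.367) and Sdhd the lowest (0.28 ± 0.10, adjusted p = 0.402), and Uqcrb had the lowest of complex III (0.22 ± 0.13, adjusted p = 0.622). Cox4i2, a form of subunit 4 of complex IV described in lung and at low oxygen, had the highest value of all members (0.65 ± 0.36, adjusted p = 0.599) at only 1.51 CPM in aldosterone kidneys and 1.02 CPM in control kidneys. Cox6a1, Cox7a2 and Cox8a, the widely expressed partners of the muscle forms, had log2 fold changes of 0.35, 0.36 and 0.34 with adjusted p-values of 0.376, 0.463 and 0.302. Cox7a1 was at 1.52 CPM in aldosterone kidneys and 1.34 CPM in control kidneys, and Cox6a2 and Cox8b had too few counts to be tested. The one member with a negative value was Ndufa3, an accessory subunit of complex I, with 77.5 ± 4.40 CPM in aldosterone kidneys and 80.1 ± 7.67 CPM in control kidneys (SD, n = 4 each; log2 -0.05 ± 0.08, adjusted p = 0.869). The lowest value of complex V was that of the copy row Atp5mc2l1 (0.08 ± 0.47, adjusted p = 0.967).

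**Figure D2:**
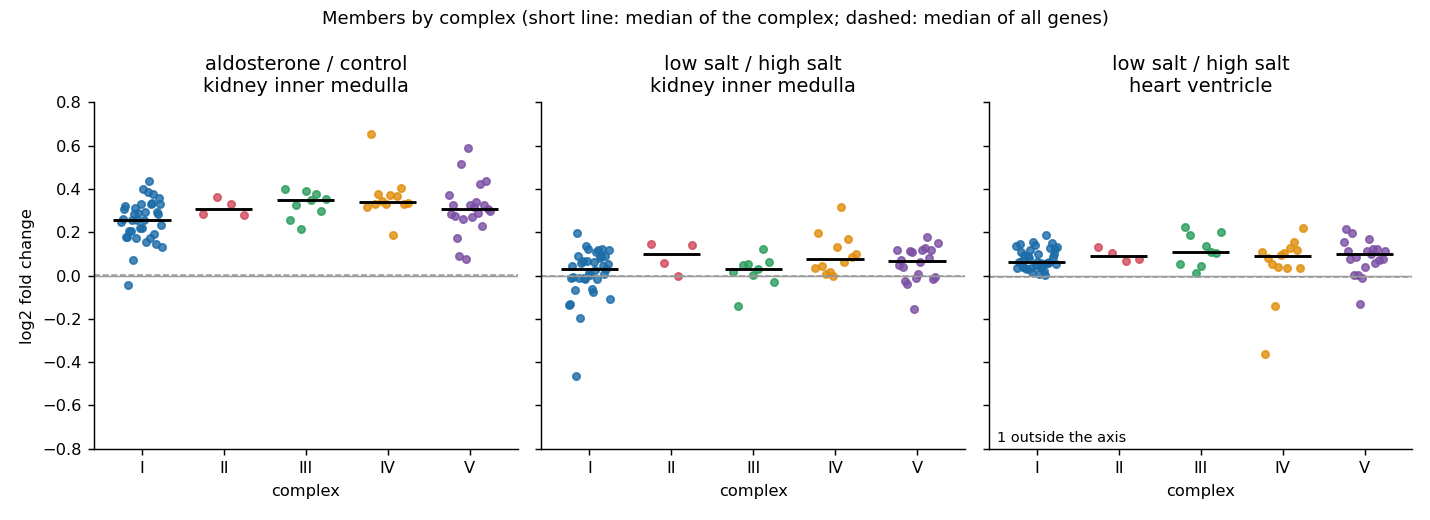
Log2 fold change of every tested member, 1 point per gene, by complex, for aldosterone over control in kidney (left), low salt over high salt in kidney (middle) and low salt over high salt in heart (right). Short lines are medians of a complex and the dashed line is the median of all genes tested. The medians of the members are 0.31, 0.05 and 0.08, and 1 low-count copy row in heart lies outside the axis.

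Other mitochondrial gene lists differed in size of change. The 13 citric acid cycle genes all had positive values, with a median of 0.30, among them Cs (citrate synthase, 0.28 ± 0.06, adjusted p = 0.200). The 71 mitochondrial ribosomal proteins had a median of 0.13, the 46 tested assembly factors 0.06 and the 17 regulators of mitochondrial biogenesis 0.02. Within the last list, Ppargc1a, the coactivator PGC-1α, stood at 0.51 ± 0.18 (log2, adjusted p = 0.420) and Esrrg, a nuclear receptor that partners with it, 0.42 ± 0.15 (adjusted p = 0.403), whereas Nrf1 and Yy1 had -0.11 ± 0.07 and -0.14 ± 0.09. The median of the 77 cytosolic ribosomal proteins was 0.08. Cycs, the cytochrome c that links complexes III and IV and lies outside the rule, had 0.50 ± 0.15 (adjusted p = 0.348). None of these lists had a called gene.

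Of the cell type markers summed here, those of the thick ascending limb partly followed the members from library to library. The summed level of 6 markers of the thick ascending limb, a segment dense in mitochondria, was 3000, 5664, 5930 and 2731 CPM in aldosterone kidneys, against 3006, 3264, 3118 and 1337 CPM in control kidneys. All 6 were above 0 on the log2 scale (median 0.67) and 0 were called. Aldosterone libraries 2 and 3 had the highest sums, as they had for the members, and control library 4 the lowest of both. The sum of 5 markers of the inner medullary collecting duct was 9880 to 14151 CPM in aldosterone kidneys and 12106 to 14348 CPM in control kidneys. The sum of 8 erythroid markers was 1501 to 3763 CPM in aldosterone kidneys and 988 to 1868 CPM in control kidneys, and that of 6 fibroblast markers 117 to 358 CPM in aldosterone kidneys and 89.0 to 274 CPM in control kidneys. The sum of 6 markers of dividing cells was 98.5 to 178 CPM in aldosterone kidneys and 19.2 to 58.7 CPM in control kidneys, without overlap. Other lists, such as those of the proximal tubule and of intercalated cells, are not given here. The part of these markers in the members' result was not tested.

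The fourth library of each group stood low for the members. On the log2 scale the median deviation from a member's own mean was -0.09 in aldosterone 4 and -0.41 in control 4, against 0.14 to 0.29 in the other aldosterone libraries and -0.10 to -0.01 in the other control libraries. Leaving out each library in turn, the members' median lay between 0.22 (without aldosterone 3) and 0.37 (without aldosterone 4). The number higher at an unadjusted p under 0.05 lay between 29 (without aldosterone 3) and 65 (without aldosterone 4), and was 32 without aldosterone 2 and 30 without control 2 or control 4. The share of all genes at that p in these fits is not given here. In each of the 8 fits 0 members were called.

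The second comparison asked how the inner medulla of low-salt kidneys differed from that of high-salt kidneys. A single member passed the test, the complex I accessory subunit Ndufa3, which was lower in low-salt kidneys. The others stood close to the median of all genes, with 59 of 82 members tested positive and a median log2 fold change of 0.05, against 49.3% and 0.00 over the 18449 genes tested. Of those genes, 1.09% were called higher and 1.37% lower, so that 1 called member of 82 was near that background. At an unadjusted p under 0.05, 6 members were higher and 3 lower, where the background was 8.98% and 10.6%. The number higher was 2 without low-salt kidney 1, 3 without low-salt kidney 4 or high-salt kidney 1, and 13 without high-salt kidney 4, and the number lower was 5 without high-salt kidney 3. The background in those fits is not given here, so these moves are no result about the members. The complex medians were 0.03 for I, 0.10 for II, 0.03 for III, 0.07 for IV and 0.07 for V.

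Ndufa3 had 68.5, 81.0, 64.4 and 64.2 CPM in low-salt kidneys, against 112, 115, 78.1 and 82.1 CPM in high-salt kidneys. Batch 1 holds the first 2 values of each group and batch 2 the last 2. Within each batch both low-salt libraries lay below both high-salt ones, while across batches the groups overlapped. The log2 fold change was -0.46 ± 0.08 with an adjusted p of 0.0371, and it was -0.61 in batch 1 and -0.31 in batch 2. The call was lost without the batch term (adjusted p = 0.130) and in 7 of 8 fits that left out 1 library (adjusted p = 0.0578 to 0.101), and was kept without low-salt library 1 (adjusted p = 0.0331).

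Separation of the groups was no more frequent among the other members than among all genes. In 4 of 82 every low-salt library lay above every high-salt one (4.88%, against 4.83% of all genes), and in 1 every one lay below (1.22%, against 6.62%). That 1 was Uqcr10, a small subunit of complex III, which had 165, 174, 167 and 170 CPM in low-salt kidneys, against 184, 189, 182 and 189 CPM in high-salt kidneys. The groups did not overlap, and the log2 fold change was -0.14 ± 0.05 (adjusted p = 0.164). Among the 4 members above, Sdha had 401, 385, 376 and 366 CPM in low-salt kidneys, against 321, 359, 346 and 353 CPM in high-salt kidneys (log2 0.15 ± 0.06, adjusted p = 0.255). Ndufa4 had the highest value of complex I (0.20 ± 0.06, adjusted p = 0.119). The copy row Atp5mkl1 (0.18 ± 0.06, adjusted p = 0.128) and Ndufb11, an accessory subunit of complex I (0.14 ± 0.05, adjusted p = 0.200), complete the 4.

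The other markers and isoforms did not pass the test. Ndufs1 averaged 205 CPM in low-salt kidneys and 189 CPM in high-salt kidneys (log2 0.12 ± 0.06, adjusted p = 0.336), Uqcrc1 241 CPM in low-salt kidneys and 240 CPM in high-salt kidneys (0.00 ± 0.05, adjusted p = 0.980), and Cox4i1 520 CPM in low-salt kidneys and 508 CPM in high-salt kidneys (0.03 ± 0.06, adjusted p = 0.799). Cox6a1, Cox7a2 and Cox8a had log2 fold changes of 0.02, 0.06 and 0.10, and the low-count Cox7a1 and Cox4i2 had 0.32 ± 0.20 and 0.20 ± 0.24. Uqcrfs1, the Rieske iron-sulfur protein, had the highest value of complex III at 0.12 ± 0.06 (adjusted p = 0.300). Sdhc, Cox6b1 and Atp5mc2l1 had the lowest values of complexes II, IV and V, at 0.00 ± 0.05, 0.00 ± 0.06 and -0.15 ± 0.57.

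Genes that serve the complexes gave 3 calls in the kidney, where 1.09% of all genes were called higher and 1.37% lower. Of 46 assembly factors tested, 0 were called higher and 2 lower. These were Uqcc2, which assembles complex III (-0.56 ± 0.08, adjusted p = 0.0219), and Cox20, a chaperone of the Cox2 subunit of complex IV (-0.43 ± 0.06, adjusted p = 0.0195). Of 71 mitochondrial ribosomal proteins, Mrps17 was called lower (-0.27 ± 0.06, adjusted p = 0.0486), and 1 of 71 was near that background. The list's median was -0.07, and at an unadjusted p under 0.05, 1 was higher and 14 were lower. Over all genes 8.98% were higher and 10.6% lower at that p. Citric acid cycle genes had a median of 0.08 with 0 called, biogenesis regulators one of 0.04 with 0 called, and cytosolic ribosomal proteins one of 0.10 with 0 called. The summed collecting duct markers were 8730 to 12405 CPM in low-salt kidneys and 11331 to 13780 CPM in high-salt kidneys. The thick ascending limb sum was 2051 to 3741 CPM in low-salt kidneys and 1747 to 3082 CPM in high-salt kidneys. The erythroid sum was 2142 to 4975 CPM in low-salt kidneys and 358 to 4160 CPM in high-salt kidneys, and the part of these markers in the values above was not tested.

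In the heart, the same diets gave small positive values across the complexes and no called member. Of 85 members, 81 were above 0 on the log2 scale of low over high salt, and the median was 0.08, against 48.2% and -0.01 over the 15473 genes tested. Of those genes 0.0517% were called. At an unadjusted p under 0.05, 15 members were higher and 1 lower, where the background was 5.68% and 4.92%. DESeq2 called 4 members, all higher, and its share over all genes is not given here. The complex medians were 0.06 for I, 0.09 for II, 0.11 for III, 0.09 for IV and 0.10 for V. Without high-salt heart 2, or without low-salt heart 1, 6 members were higher at an unadjusted p under 0.05 and 68 were above 0. The share of all genes in those fits is not given here. The median was 0.12 in batch 1 and 0.05 in batch 2, and it was 0.05 without high-salt heart 2 and 0.05 without low-salt heart 1, whose level lay above a member's own mean in 82 of 85 members.

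In 3 of 85 members every low-salt heart lay above every high-salt heart, a share (3.53%) near the 2.69% of all genes, so this separation is no result about the members. Atp5f1a, the α subunit of ATP synthase, had 5999, 5573, 5300 and 5298 CPM in low-salt hearts, against 5010, 4950, 5089 and 4844 CPM in high-salt hearts. The groups did not overlap, with a log2 fold change of 0.15 ± 0.06 (adjusted p = 0.402). The γ subunit gene Atp5f1c (0.11 ± 0.06, adjusted p = 0.529) and Ndufs1 were the other two without overlap. Ndufs1 had 1629, 1519, 1493 and 1439 CPM in low-salt hearts, against 1278, 1266, 1431 and 1372 CPM in high-salt hearts (0.19 ± 0.07, adjusted p = 0.385). That difference was 0.31 in batch 1 and 0.07 in batch 2. The median of the 5 Atp5f1 genes was 0.15 and that of the 3 c ring genes 0.00.

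Of the muscle forms, Cox8b had 1560, 1410, 1114 and 1110 CPM in low-salt hearts, against 1349, 1216, 931 and 966 CPM in high-salt hearts. The batches differed more than the diets, and within each batch the low-salt libraries were higher (0.22 ± 0.06, adjusted p = 0.271). Cox6a2 averaged 1304 CPM in low-salt hearts and 1268 CPM in high-salt hearts (0.04 ± 0.06, adjusted p = 0.861). Cox7a1 had 38.6, 37.3, 11.5 and 35.3 CPM in low-salt hearts, against 41.9, 34.5, 23.6 and 20.7 CPM in high-salt hearts, with the third low-salt library far below the rest (0.03 ± 0.28, adjusted p = 0.976). Their partners Cox6a1, Cox7a2 and Cox8a had log2 fold changes of -0.14 ± 0.06, 0.13 ± 0.05 and 0.03 ± 0.05 with adjusted p-values of 0.462, 0.420 and 0.835. Cox4i1 had 0.11 ± 0.06 (adjusted p = 0.542) and Cox4i2 -0.36 ± 0.18 (adjusted p = 0.527).

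Uqcr10, the subunit that separated downward in the kidney, had the highest heart value of complex III, with 571 CPM in low-salt hearts and 487 CPM in high-salt hearts (0.23 ± 0.07, adjusted p = 0.308). Sdha had the highest value of complex II (0.13 ± 0.07, adjusted p = 0.562) and Sdhc the lowest (0.07 ± 0.06, adjusted p = 0.708). Uqcrc1 had 0.04 ± 0.06 (adjusted p = 0.814), and Ndufc2 and Uqcrb, the lowest of complexes I and III, had 0.00 ± 0.07 and 0.01 ± 0.07. The copy rows Atp5pdl1 and Atp5mc2l1 held the extremes of complex V at 2.46 ± 1.25 and -0.13 ± 1.02, both below 3 CPM in every group mean.

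Of the other lists in heart, the citric acid cycle genes had a median of 0.08, the biogenesis regulators 0.07, the assembly factors 0.01 and the mitochondrial ribosomal proteins 0.01, with 0 called in each. Perm1, a muscle regulator of mitochondrial genes, had 0.23 ± 0.05 (adjusted p = 0.226). The cytosolic ribosomal proteins were negative in 76 of 77 genes with a median of -0.10 and 0 called, and that median was 0.01 in batch 1 and -0.21 in batch 2. The 7 cardiomyocyte markers had a median of -0.08, with 3 positive, 4 negative and 0 called. The 8 erythroid markers were all positive, with a median of 1.30 and 0 called, and their sum was 17677, 56261, 19566 and 43619 CPM in low-salt hearts, against 30982, 33865, 9100 and 2234 CPM in high-salt hearts. The groups overlapped, and low-salt heart 1, the library with the highest sum of members, had the lowest erythroid sum of its group. The 6 fibroblast markers were all negative (median -0.30) and so were the 6 of dividing cells (median -0.47), with 0 called. The part of these markers in the members' values was not tested.

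The difference between the heart and kidney responses to low salt was tested directly over the 16 libraries. Of 86 members tested, 0 were called, where 0.83% of the 19408 genes were. At an unadjusted p under 0.05, the response was higher in heart for 7 and lower for 0 (background 7.33% and 7.1%). DESeq2 called 3 members, and a filter of 1 CPM in 4 libraries gave 1, with no share of all genes given here for either. The smallest p belonged to Ndufa3, with a response 0.50 ± 0.11 higher in heart (log2, adjusted p = 0.0549). It had 157, 151, 137 and 132 CPM in low-salt hearts, against 155, 135, 125 and 145 CPM in high-salt hearts. Uqcr10 (0.36 ± 0.09, adjusted p = 0.0749), Ndufa7 (0.28 ± 0.09, adjusted p = 0.163) and Ndufa1 (0.27 ± 0.10, adjusted p = 0.230), the last 2 accessory subunits of complex I, followed. Ndufs1, Sdha, Uqcrc1 and Cox4i1 had differences of 0.06, -0.02, 0.03 and 0.07, with adjusted p-values of 0.843, 0.969, 0.912 and 0.777.

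The aldosterone response was set against the low-salt response in kidney in the same way. Of 84 members tested, 81 had a larger value with aldosterone, with a median difference of 0.23, against 49.1% and -0.01 over 18938 genes. By edgeR 0 were called, where 0.0528% of all genes were. DESeq2 called 5, and its share over all genes is not given here. At an unadjusted p under 0.05, 27 were higher and 0 lower (background 6.75% and 6.37%). With 1 library left out, that number was 10 without aldosterone 3, 14 without control 4, 16 without high-salt kidney 4 and 17 without low-salt kidney 3, and it was 45 without control 3 and 51 without aldosterone 4. The shares of all genes at that p in these fits are not given here. The median difference was 0.15 without aldosterone 3 and at most 0.30 in the other fits. The smallest p belonged to Uqcr10 (0.38 ± 0.09, adjusted p = 0.102), Ndufa10 (0.37 ± 0.10, adjusted p = 0.105), Ndufb7 (0.35 ± 0.09, adjusted p = 0.109) and Ndufa3 (0.40 ± 0.11, adjusted p = 0.111). Uqcrc1 had 0.37 ± 0.12 (adjusted p = 0.199) and Ndufa4 -0.01 ± 0.13 (adjusted p = 0.982). Since the 2 experiments differ in rats, batches and the sex-linked transcripts given above, those differences and the treatments cannot be told apart.

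**Figure D3:**
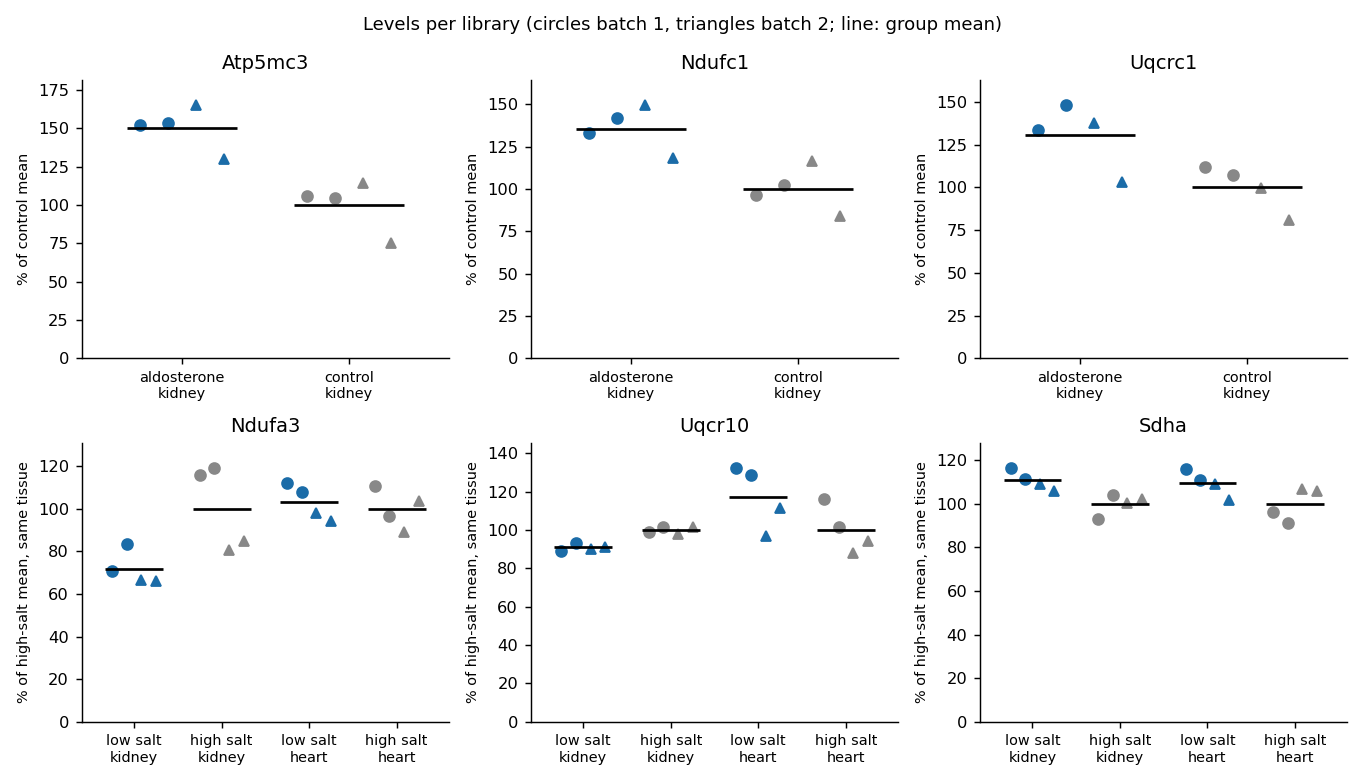
Level per library as a percentage of the mean of the comparison group of the same tissue, for 3 members in aldosterone and control kidneys (top) and 3 members in low-salt and high-salt kidneys and hearts (bottom). Circles are batch 1, triangles batch 2 and lines group means. Atp5mc3 and Ndufc1 separate the top groups, Uqcr10 is below 100% in each low-salt kidney, and Ndufa3 stands higher in both batch 1 high-salt kidneys than in batch 2.

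The last comparison set heart ventricle against kidney inner medulla on each diet, with the second diet serving as separate libraries for the same contrast. Nearly every member was higher in heart, typically by about 3 on the log2 scale. On high salt 83 of 84 members tested were called higher in heart and 0 lower, where 37.6% of all genes were called higher and 42.4% lower. On low salt it was 84 of 85 and 0, against 37.9% and 43.4%. The median log2 fold change was 2.93 on high salt and 2.97 on low salt, against -0.13 and -0.15 over all genes. In 82 members on each diet every heart library lay above every kidney library, as in 34.7% of all genes on high salt and 35.9% on low salt. The 1 member not called was Atp5mc2l1 on both diets.

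The complexes had similar medians. On high salt they were 2.83 for I, 2.95 for II, 2.93 for III, 3.19 for IV and 2.96 for V. On low salt they were 2.89, 2.91, 3.12, 3.20 and 2.99 in the same order. Of 84 members, 74 lay between 2 and 4 on high salt, and of 85 members 77 did on low salt. The choice of library scaling moved all these values together. With library totals alone the members' median was 2.03 on both diets, but that of all genes also fell, to -1.02 on high salt and -1.08 on low salt, and the distance between members and all genes was 3.06 on high salt and 3.11 on low salt under either scaling.

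The markers showed the size of the contrast. Ndufs1 had 1756, 1735, 1974 and 1900 CPM in high-salt hearts, against 136, 159, 127 and 130 CPM in high-salt kidneys on the scale shared by both tissues. This was a log2 fold change of 3.74 ± 0.11, the highest of complex I, with an adjusted p of 9.22e-09. On low salt it was 3.81 ± 0.07. Uqcrc1 averaged 2125 CPM in high-salt hearts and 175 CPM in high-salt kidneys (3.60 ± 0.08), Sdha 1996 CPM in high-salt hearts and 252 CPM in high-salt kidneys (2.98 ± 0.09) and Cox4i1 2814 CPM in high-salt hearts and 371 CPM in high-salt kidneys (2.92 ± 0.09). On low salt the 3 had 3.64, 2.97 and 3.0. Sdhb, the iron-sulfur subunit of complex II, had the highest value of its complex on both diets, at 3.47 and 3.51, and Sdhc, a membrane anchor, the lowest, at 2.51 and 2.58. Uqcrfs1 led complex III at 3.80 and 3.79, and Uqcr10 ended it at 2.30 and 2.66. Atp5mc1 led complex V at 3.90 and 3.87, with 1711 CPM in high-salt hearts and 114 CPM in high-salt kidneys. The members with the smallest p in each complex were close to these values, among them Ndufa8, Ndufa9 and Ndufb5 in complex I (2.92 to 3.58 on high salt), Cyc1 in complex III (3.45), Cox5a in complex IV (3.19) and Atp5f1c and Atp5pf in complex V (3.43 and 2.88).

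**Figure D4:**
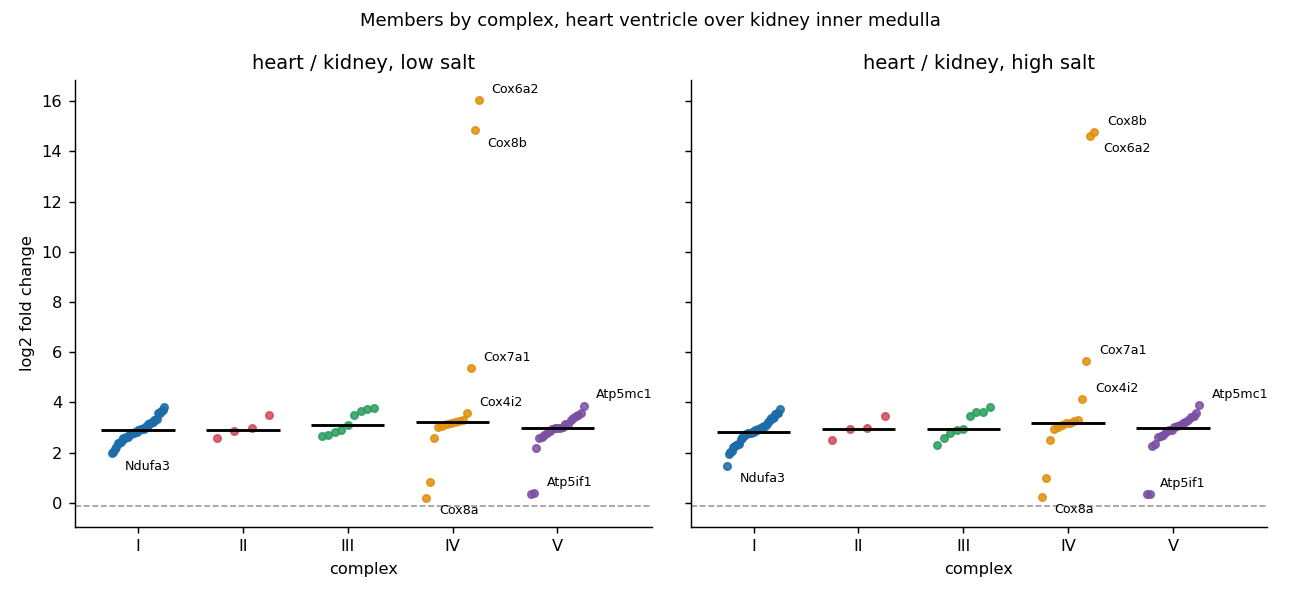
Log2 fold change of heart ventricle over kidney inner medulla for every tested member, by complex, on low salt (left) and high salt (right). Points are genes, short lines medians of a complex, and the dashed line the median of all genes. Most points lie between 2 and 4, with muscle forms of complex IV above and Cox8a and Atp5if1 below.

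The muscle forms of complex IV stood at the upper end. Cox6a2 had 1742, 1749, 1674 and 1820 CPM in high-salt hearts, against 0.117, 0.0576, 0.0428 and 0.0440 CPM in high-salt kidneys. Those kidney levels rest on 13 counts over the 4 high-salt libraries and 4 counts over the 4 low-salt ones. The ratios that follow used CPM of summed counts over library totals alone, not the scaled levels above. With library totals alone, heart over kidney values are lower, with a members' log2 median on high salt of 2.03 against 2.93. On that scale Cox6a2 was 14133 times higher in hearts on high salt (95% exact Poisson interval 8265 to 26543). On low salt Cox6a2 was 41097 times higher (16051 to 150834). Cox8b rested on 10 kidney counts on each diet, and its ratio was 16138 (8775 to 33653) on high salt and 16234 (8828 to 33854) on low salt. The intervals cover counting error only, not the choice of scaling. Cox7a1 averaged 41.5 CPM in high-salt hearts and 0.813 CPM in high-salt kidneys (log2 5.65 ± 0.16), and 42.0 CPM in low-salt hearts and 1.01 CPM in low-salt kidneys (5.35 ± 0.37).

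Of the widely expressed partners, Cox7a2 stood near the other members, Cox8a near equality and Cox6a1 between them. Cox7a2 averaged 1002 CPM in high-salt hearts and 105 CPM in high-salt kidneys (3.25 ± 0.08), a difference like that of most members. Cox6a1 averaged 335 CPM in high-salt hearts and 169 CPM in high-salt kidneys (0.98 ± 0.08), and on low salt its difference was 0.83 ± 0.07. Cox8a, the partner of Cox8b whose promoter window holds 4 matches to 3 of the searched motifs, had 252, 260, 252 and 240 CPM in high-salt hearts, against 221, 218, 203 and 204 CPM in high-salt kidneys. The groups did not overlap there (0.25 ± 0.06, adjusted p = 0.00446), but overlapped on low salt (0.18 ± 0.07, adjusted p = 0.0325). With library totals alone Cox8a was lower in heart, at -0.65 on high salt and -0.76 on low salt, and on low salt also with upper-quartile scaling (-0.02). Relative to the shift of all genes it was above the median gene in each of these scalings. Cox4i2 was higher in heart by 4.13 ± 0.15 on high salt and 3.56 ± 0.19 on low salt, at 12.7 CPM in high-salt hearts and 0.724 CPM in high-salt kidneys.

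**Figure D5:**
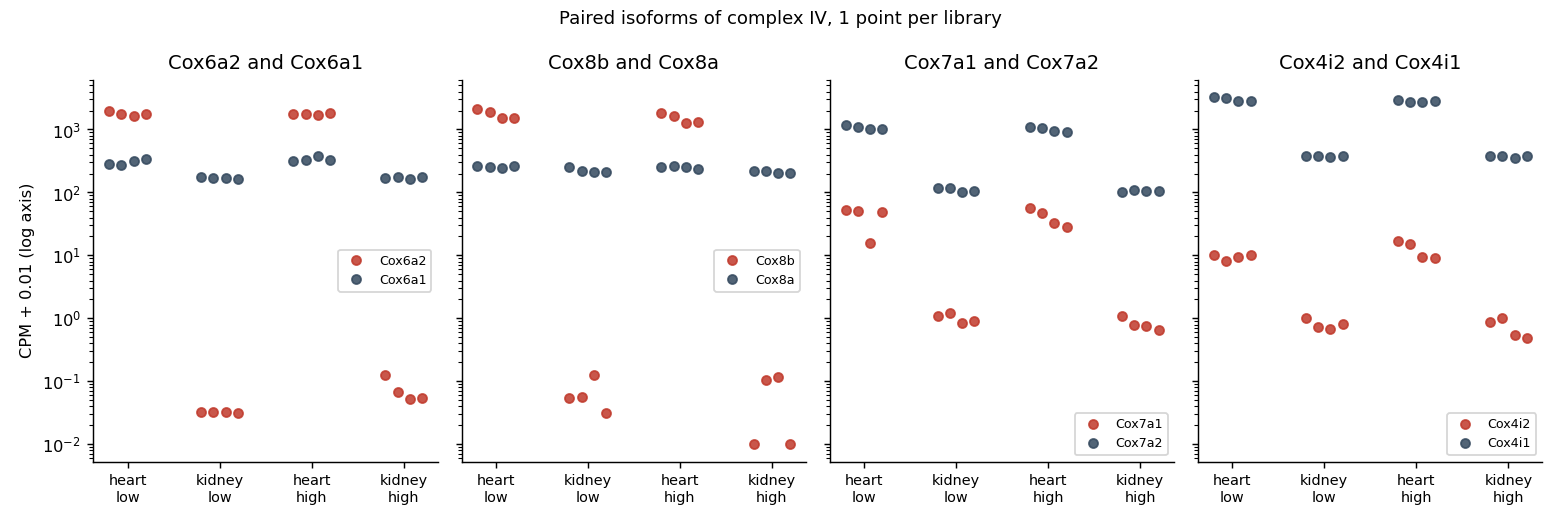
Level of 4 pairs of complex IV isoforms in each library, in CPM + 0.01 on a log axis, for hearts and kidneys on low and high salt. Red points are the muscle or low-oxygen form and dark points the widely expressed partner. Cox6a2 and Cox8b lie at 1285 CPM or more in every heart and at 0.117 CPM or less in every kidney, whereas Cox8a lies between 203 and 262 CPM in both tissues. Levels of different genes are not compared, because transcript lengths are not in the tables.

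Among the other members with small tissue differences, 2 of different kinds are given here. Atp5if1, the inhibitor that binds ATP synthase when the proton gradient fails, had 189, 190, 164 and 187 CPM in high-salt hearts, against 157, 123, 123 and 172 CPM in high-salt kidneys. The groups overlapped, and the log2 fold change was 0.35 ± 0.13 (adjusted p = 0.0318), turning to -0.55 with library totals alone. Ndufa3 was the lowest of complex I on both diets, at 1.47 ± 0.11 on high salt and 1.97 ± 0.07 on low salt. It averaged 193 CPM in high-salt hearts and 70.9 CPM in high-salt kidneys, and 198 CPM in low-salt hearts and 50.5 CPM in low-salt kidneys.

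Other mitochondrial lists also stood higher in heart, by differing amounts. Over all genes on high salt, 37.6% were called higher in heart and 42.4% lower. On high salt the citric acid cycle genes had a median of 3.19 with 13 of 13 called higher, the assembly factors 1.72 with 45 of 46, and the mitochondrial ribosomal proteins 1.72 with 69 of 71 called higher and 2 lower. The biogenesis regulators had a median of 0.90 with 13 of 17 called higher and 1 lower, and the cytosolic ribosomal proteins one of 0.77 with 69 of 77 higher and 2 lower. On low salt the corresponding medians were 3.15, 1.84, 1.75, 0.91 and 0.54. Among the regulators on low salt, Perm1 was higher by 9.05 ± 0.28, Ppargc1b by 2.78 ± 0.19, Esrra by 2.11 ± 0.07, Ppargc1a by 1.30 ± 0.09 and Tfam, which packages mitochondrial DNA, by 1.27 ± 0.06. Nrf1, which binds promoters of many subunit genes, was called lower in heart (-0.66 ± 0.09, adjusted p = 0.000132), and Gabpb1 and Yy1 were not called, at -0.15 ± 0.11 and 0.03 ± 0.06. The tissue labels held against their markers on high salt, with 7 of 7 cardiomyocyte markers called higher in heart and 5 of 5 collecting duct markers called lower.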

How the data were processed

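Gene-level expected counts were deposited by the authors, one table for each experiment and tissue; per the labels' protocols, the kit keeps strand and reads are single-end. The submitters' processing notes name bcl2fastq 2.19, MultiQC, Trimmomatic and Salmon. Build, annotation and strand setting: not given in the sources used here. Reads of a parent gene and its like copies may be split by the estimation, so the copy rows are uncertain, and the tables hold no transcript lengths.

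The expected counts were rounded. Genes were kept by edgeR's filterByExpr (minimum count 10), scaled by TMM and tested with edgeR 4.0.16 quasi-likelihood F tests in R 4.3.3 with batch as a term, with Benjamini-Hochberg adjustment over all genes tested and a threshold of 0.05. The 7 comparisons were fitted in 7 models, and responses were compared by interaction terms over 16 libraries. SE is the log2 fold change divided by the root of F. Levels are CPM of the effective library size of each comparison, so a library's level differs slightly between the treatment and the tissue scale. The scripts were tested on simulated data. DESeq2 1.42.0, 3 other scalings, 2 filters, a fit with no batch term, one with a replicate block, single batches and leaving out each library were the alternatives.

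The members and gene lists were chosen with earlier results of these data known. Genes named were the 4 markers and isoform pairs in every comparison, all called members where 10 or fewer (otherwise the 3 smallest p in each complex), the highest and lowest of each complex, and the 4 smallest p in the differences of responses. The members named for separating groups, the F1 and c ring genes, and the pathway genes named were chosen after their values were seen. Replicate numbers were checked for pairing by the correlation of deviations from group means. It was 0.23 to 0.31 for heart with kidney on high salt and 0.16 to 0.23 for low with high salt in heart. Both passed the rule that all 4 exceed 0.1. Batch means were not removed, so these correlations cannot tell pairing from shared batch. On high salt each heart library matched the kidney library of its own number best, also against the other kidney library of its batch. Whether the same rats gave both tissues was not tested further. In heart, low-salt library 2 matched high-salt library 1 best, low-salt 3 matched high-salt 4 and low-salt 4 matched high-salt 3. The low-salt and high-salt hearts came from different rats. The main tests used the batch term without pairing, and the replicate block changed no count of called members there. The 4 samples of a group are 4 rats. A result for 1 gene of the pathway lists is not reported here.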

Additional observations from a re-analysis of the deposited data

Results flagged for a closer look

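Groups of 4 libraries were checked for a value standing apart by Dixon's test in 106 groups of values, of which 6 stood apart, about the 1 in 20 that chance gives. In low-salt heart 1 the share of counts in complex III was 0.894%, against 0.815% to 0.828% in the other low-salt hearts. In control kidney 4, Cox6a1 was at 172 CPM, against 227.9 to 239 CPM in the other controls, and Cox7a2 at 114 CPM, against 154 to 162 CPM. In low-salt heart 3, Cox7a1 was at 11.5 CPM, against 35.3 to 38.6 CPM. In high-salt heart 1, Uqcrc1 was at 1622 CPM, against 1511 to 1521 CPM, and in high-salt kidney 2 it was at 256 CPM, against 233.4 to 236 CPM. Control kidney 4 also had the lowest sum of thick ascending limb markers, 1337 CPM, and its part in these values was not tested.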

How the results depend on the processing

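All values here are log2 fold changes or counts of called members. DESeq2 called 5 members for aldosterone, 2 for low salt in kidney, 4 for low salt in heart, 3 for the difference of low-salt responses and 5 for aldosterone minus low salt. Its shares over all genes are not given here, so these counts have no background beside them. In kidney, low salt gave 0 called members without the batch term and 0 with the replicate number as a block, where Ndufa3 had an adjusted p of 0.0785, and 0 to 1 when 1 library was left out. The kidney numbers do not pair by the check used (correlations -0.04 to 0.29), nor do those of the aldosterone experiment (-0.04 to 0.38) or of the tissues on low salt (0.02 to 0.33), and the replicate block changed no other count of called members. A filter of 1 CPM in 4 libraries gave 1 called member in the difference of low-salt responses. For heart over kidney, upper-quartile scaling gave a member median of 2.74 on high salt and 2.77 on low salt, and for complexes I to V 2.64, 2.77, 2.74, 3.01 and 2.78 on high salt and 2.69, 2.71, 2.91, 3.0 and 2.79 on low salt. Library totals alone gave 2.03 on both diets, and for complexes I to V 1.93, 2.06, 2.03, 2.30 and 2.07 on high salt and 1.95, 1.97, 2.17, 2.27 and 2.05 on low salt. Complex III was 3.12 in batch 1 alone on high salt and 2.97 in batch 2 alone on low salt, complex V on high salt 2.87 to 3.01 with 1 library left out, and complex III for aldosterone minus low salt 0.18 to 0.38 with 1 left out.

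Of 142 values for named genes, 22 changed sign under some alternative, and 4 of these were called. With library totals alone, heart over kidney was -0.55 for Atp5if1 and -0.65 for Cox8a on high salt, and -0.11 for Cox6a1, -0.76 for Cox8a and -0.58 for Atp5mc2l1 on low salt, and Cox8a was -0.0196 there with upper-quartile scaling. The uncalled ones lay near 0 or were rows of few counts. With the replicate block the values were -0.034 for Atp5mc2l1 (aldosterone), 0.0062 for Atp5mc2l1 (heart low salt), -0.058 for Cox7a1 (heart low salt) and 0.086 for Atp5pdl1 (the difference of low-salt responses). By DESeq2 the value was 0.0059 for Sdhc (kidney low salt). RLE scaling gave 0.0059 for Sdhc (kidney low salt). Upper-quartile scaling gave 0.0062 for Sdhc (kidney low salt) and -0.0055 for Ndufc2 (heart low salt). Library totals alone gave 0.011 for Sdhc (kidney low salt), -0.0033 for Cox7a1 (heart low salt), -0.031 for Ndufc2 (heart low salt), -0.019 for Uqcrb (heart low salt), -0.0059 for Uqcrc1 (the difference of low-salt responses) and 0.0033 for Ndufa4 (aldosterone minus low salt). Without a filter the values were -0.0064 for Cox6b1 (kidney low salt), -0.0034 for Uqcrc1 (kidney low salt), -0.000733 for Ndufc2 (heart low salt) and 0.0028 for Ndufa4 (aldosterone minus low salt). The filter of 1 CPM in 4 libraries gave 0.0083 for Sdhc (kidney low salt) and -0.00016 for Ndufc2 (heart low salt). Without the batch term the value was 0.018 for Atp5mc2l1 (heart low salt). Leaving out 1 library at a time gave these ranges. For aldosterone the range was -0.27 to 0.45 for Atp5mc2l1. For kidney low salt they were -0.91 to 0.40 for Atp5mc2l1, -0.022 to 0.038 for Cox6b1, -0.023 to 0.032 for Uqcrc1 and -0.021 to 0.031 for Sdhc. For heart low salt they were -1.22 to 1.09 for Atp5mc2l1, -0.36 to 0.27 for Cox7a1, -0.043 to 0.041 for Ndufc2, -0.043 to 0.046 for Uqcrb and -0.0094 to 0.077 for Cox6a2. For heart over kidney on low salt the range was -0.48 to 0.75 for Atp5mc2l1. For the difference of low-salt responses they were -3.59 to 3.20 for Atp5pdl1, -0.10 to 0.0035 for Uqcrb, -0.058 to 0.035 for Sdha and -0.58 to 0.64 for Cox8b. For aldosterone minus low salt they were -0.093 to 0.063 for Ndufa4 and -3.54 to 7.37 for Atp5mc2l2. The cause of these changes was not tested. The copy rows and the kidney levels of Cox6a2 and Cox8b rest on few counts.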
